A study of Mus musculus with 2 samples.

Results

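The barcodes described here were selected on 2 measured values, a depth of 700 to under 2500 unique molecular identifiers (UMIs, each marking 1 captured RNA molecule) and at most 10% of UMIs in mitochondrially encoded genes (symbols starting with mt-). The rule took 688 barcodes of the control library and 399 of the sonKD library, 1087 of the 2809037 barcodes listed for both. They are called shallow low-mt barcodes. They made up 13.6% of the 5052 control barcodes at this depth (95% exact binomial interval 12.7 to 14.6) and 16.8% of the 2373 sonKD barcodes (15.3 to 18.4). They were 6.46% and 6.48% of all barcodes with at least 700 UMIs, and the sort on 7-AAD, which removed cells before barcoding, can set such shares.

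Both libraries came from E14 cells, a mouse embryonic stem cell line of 129/Ola background, kept in 15% serum with leukaemia inhibitory factor at 1000 U/mL. The control library was made from cells given a control siRNA and the sonKD library from cells given siRNA against Son, which encodes a scaffold protein of nuclear speckles, all by lipofection and harvested after 24 h. The cells were frozen, thawed, stained with the dye 7-AAD to sort out dead cells, and barcoded with 10x Genomics Single Cell 3' v3 chemistry. Each group was 1 library, so no test was made, and what the siRNA did cannot be told apart from how these libraries differ otherwise. Intervals cover counting error only.

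In droplet sequencing a barcode marks a droplet, which can hold a whole cell, part of a cell, or only RNA that floated free in the suspension. Free RNA is drawn mostly from the cytoplasm of broken cells and is rich in short, abundant messages such as those of ribosomal proteins. A cell that has lost cytoplasm keeps its nucleus, where the long noncoding RNA Malat1 and unspliced transcripts of long genes reside, and its mitochondria, so a high mitochondrial share is widely used as a sign of damage. The sections that follow set the shallow low-mt barcodes beside 3 classes of the same library. Deep barcodes had at least 2500 UMIs and at most 10% mt UMIs (4978 control and 2731 sonKD), droplets had 100 to 500 UMIs (59886 and 62449), and shallow high-mt barcodes had 700 to under 2500 UMIs with over 10% mt UMIs (4364 and 1974).

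The depth and mt values that chose the members were as follows. Members had a median of 1365 UMIs and 879.5 genes in control and of 1388 UMIs and 917 genes in sonKD, and together held 976923 and 572906 UMIs, 1.38% and 0.949% of each library. Low in mitochondrial RNA they were only against the high-mt barcodes. Their summed mt share was 6.28% in control and 5.43% in sonKD, above the deep barcodes at 3.82% and 4.19% and the droplets at 0.982% and 0.961%. In control 69.5% of members, and in sonKD 53.6%, exceeded the median mt share of the deep barcodes (3.65% and 4.10%). The name of a low mitochondrial share therefore holds against the 10% limit alone, and the members are called by their rule. Their mt shares gathered toward both ends of the allowed range: 145 control and 107 sonKD members lay below 1%, only 15 and 17 lay from 2 to 3%, and 138 and 47 lay from 9 to 10%.

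**Figure D1:**
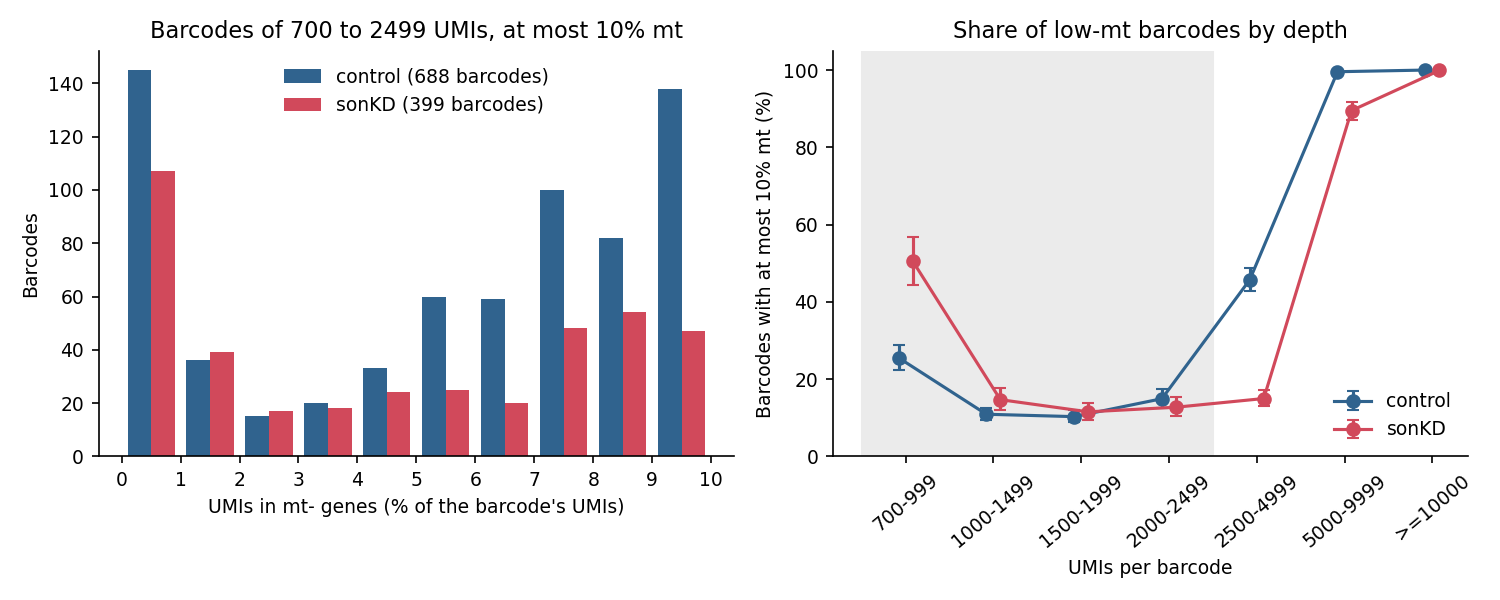
Left, number of shallow low-mt barcodes per percentage point of UMIs in mt- genes, control in blue and sonKD in red. Right, percent of all barcodes in each UMI range with at most 10% mt UMIs, with 95% exact binomial intervals and the members' depth shaded; the share was 25.5% in control and 50.6% in sonKD at 700 to under 1000 UMIs, near 10 to 15% from 1000 to under 2500, and over 99% in both from 10000.

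The values just inside and outside each limit of the rule were as follows. Just inside the lower UMI limit, 71 control and 47 sonKD members of 700 to under 750 UMIs held 30.2% and 33.8% of UMIs in ribosomal protein genes, and just outside it the barcodes of 650 to under 700 UMIs held 31.3% and 36.5%. At the upper limit, members of 2300 to under 2500 UMIs had a summed mt share of 7.48% and 6.68%, and low-mt barcodes of 2500 to under 2700 UMIs had 7.31% and 6.17%. At the mt limit, members of 9 to 10% mt held Malat1 at 0.798% and 0.663% of UMIs, and barcodes of over 10 to 11% at 1.08% and 0.824%. No member barcode sequence occurred among the members, deep or high-mt barcodes of the other library, while 9 control and 5 sonKD members shared theirs with a droplet there. In addition, 1 sonKD member shared its sequence with a control barcode of at least 700 UMIs outside those classes.

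Malat1 (chromosome 19, 5795690 to 5802672, GRCm38), a long noncoding RNA retained in nuclear speckles, stood at 7972 UMIs for every 1000000 UMIs of the class (CPM) in control members and 8982 CPM in sonKD members. The deep barcodes held 2634 and 2192 CPM of it and the droplets 1260 and 1019 CPM. The log2 ratio of members over deep barcodes was 1.60 in control (95% conditional binomial interval 1.56 to 1.63) and 2.03 in sonKD (1.99 to 2.08). The members thus held more Malat1 per UMI than the deep barcodes and the droplets in both libraries, while the high-mt barcodes held 9006 CPM in control, above the members, and 6298 CPM in sonKD. Of 16 nuclear long noncoding RNAs listed, 8 had a mean of at least 50 CPM over members and deep barcodes of both libraries, the level required throughout, and 7 of them were past 1.5-fold higher in both libraries (Malat1, Neat1, Meg3, Gm42418, Rian, Tsix and Firre). The count and the list medians include Gm42418, whose locus is known to collect ribosomal RNA reads and which may not belong to this class. The list median was 0.84 in control and 1.02 in sonKD, against 0.04 and 0.09 over all 3458 genes that reached the level. Over all of these, 9.08% were past 1.5-fold higher in both libraries and 2.95% were lower in both. That balance depended on the limits. With members and deep barcodes both of at most 5% mt, 80 genes were higher and 104 lower. At a mean of at least 200 CPM, 32 were higher and 41 lower. Meg3, an imprinted noncoding RNA, stood at 301 CPM in control members against 198 CPM in deep barcodes and at 305 against 192 CPM in sonKD.

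The highest ratio over deep barcodes belonged to AY036118, at 3.01 in control (2.92 to 3.09) and 2.89 in sonKD (2.76 to 3.02), and Gm42418 stood at 2.26 (2.21 to 2.31) and 2.62 (2.55 to 2.68). These loci overlap on opposite strands of chromosome 17 (39847113 to 39848035 and 39846958 to 39848788) in a stretch known to collect ribosomal RNA reads, and how strand and shared sequence were counted is not given in the sources used here. Unlike Malat1, both were still higher in droplets: Gm42418 stood at 3720 CPM in control members, 778 CPM in deep barcodes and 8668 CPM in droplets. The other genes with the 12 highest ratios were 5330438D12Rik (2.47 in control and 2.89 in sonKD), 1600010M07Rik (2.47 and 2.45), Gm37240 (2.27 and 2.51), Scpep1os (1.75 and 2.22), Tmtc3 (1.54 and 2.30), Fgfr2 (1.51 and 1.75), Rb1 (1.44 and 1.80), Eif3j1 (1.41 and 1.90) and Dctn4 (1.37 and 1.70). Fgfr2 encodes a fibroblast growth factor receptor and Rb1 the retinoblastoma protein, which restrains entry into S phase. Cluster 2, the smallest of 3 clusters of members described further on, held 72.2% of the Rb1 UMIs of control members and 48.4% in sonKD, and 62.3% and 59.1% of those of Tmtc3. In the other control clusters Rb1 stood at 29.6 and 10.1 CPM, at or below the 29.9 CPM of deep barcodes. In sonKD this did not hold: cluster 3 held 51.6% of the Rb1 UMIs, at 79.9 CPM (54.6 to 113) against 31.1 CPM in deep barcodes. 5330438D12Rik, 1600010M07Rik, Gm37240 and Scpep1os carry clone, model or opposite-strand symbols, and each was at or under 7.84 CPM in the droplets of both libraries. Scpep1os and Tsix overlap a gene on the opposite strand, Scpep1 and Xist, so their reads may include those of the partner.

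**Figure D2:**
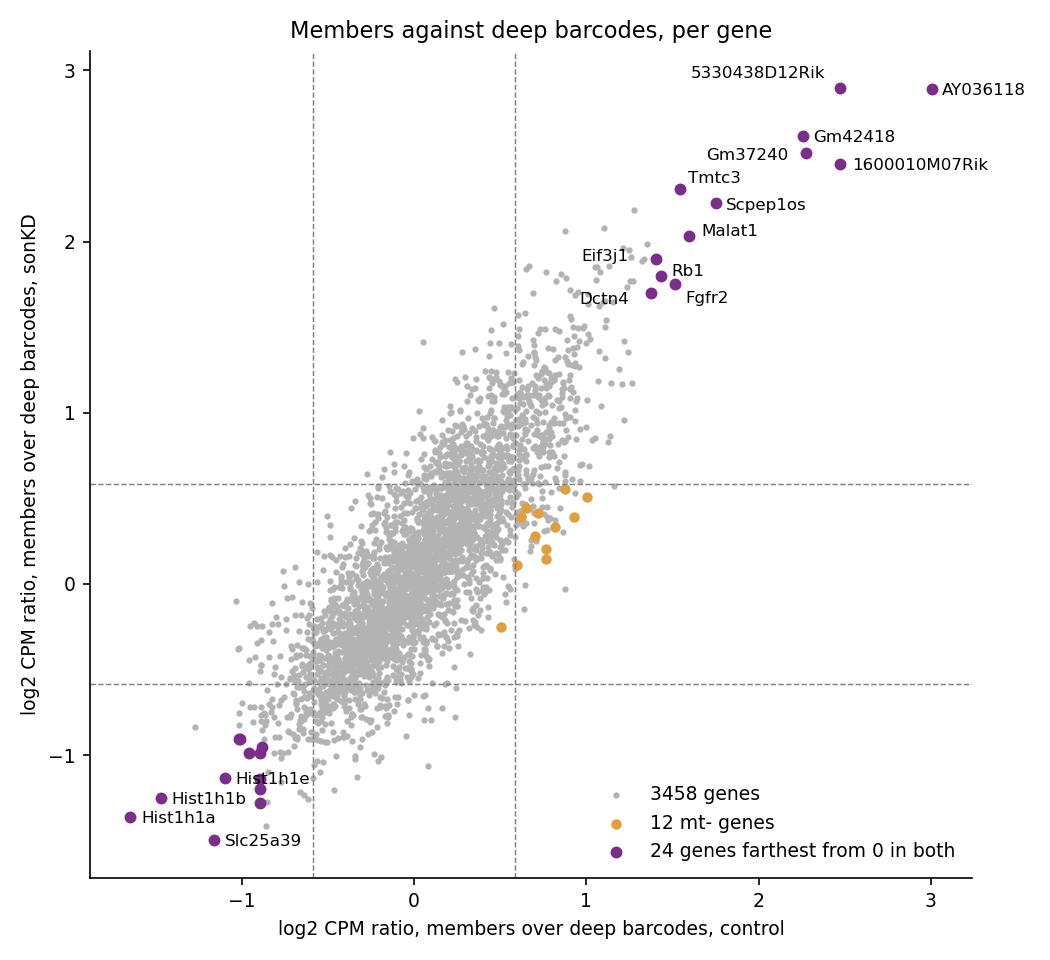
Log2 ratio of CPM in shallow low-mt barcodes over deep barcodes, control on the x axis and sonKD on the y axis, for 3458 genes (grey), the 12 mt- genes among them (orange) and the 24 genes farthest from 0 in both (purple, 16 of them labelled); dashed lines mark 1.5-fold. Most genes lie along the diagonal, with AY036118 at 3.01 and 2.89 at the top and Hist1h1a at -1.65 and -1.36 at the bottom.

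Among host genes of small nucleolar RNAs (snoRNAs), 4 of the 6 genes kept were higher in both libraries (Snhg3, Snhg4, Snhg12 and Snhg20). Snhg12 stood at 154 CPM in control members against 63.3 CPM in deep barcodes, and at 290 against 63.8 CPM in sonKD, with log2 ratios of 1.28 (1.03 to 1.52) and 2.18 (1.95 to 2.41). Among 37 genes of the ER and of secreted or membrane proteins, 6 were higher in both and none lower, against 9.08% and 2.95% of all genes. The higher genes included the chaperone Hspa5 (637 against 379 CPM in control, 543 against 318 CPM in sonKD) and the disulfide isomerases Pdia3 (0.83 and 0.82) and Pdia6 (0.96 and 0.69), as log2 ratios. The list median was 0.26 in control and 0.30 in sonKD. Among 36 nuclear speckle proteins, 5 were higher in both (Son, Srsf11, Tra2a, Tra2b and Prpf4b) and the export adaptor Alyref was lower (-0.59 and -1.14). That list had medians of 0.11 and 0.12, and its splicing regulator Tra2a stood at 318 against 169 CPM in control and 344 against 142 CPM in sonKD. Apoe, which encodes a lipid carrier and was named after its values were seen, had log2 ratios of 1.24 and 1.35 and stood at 2816 CPM in control members against 1190 CPM in deep barcodes and at 2454 against 960 CPM in sonKD.

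p53 target genes were higher for 6 of the 13 kept (Mdm2, Trp53inp1, Perp, Btg2, Polk and Pvt1) and lower for none, against 9.08% and 2.95% of all genes. The list medians were 0.59 in control and 0.69 in sonKD. Mdm2 (chromosome 10, 117688875 to 117710758), which encodes the ubiquitin ligase that restrains p53, stood at 327 CPM in control members against 141 CPM in deep barcodes (log2 1.22, 1.05 to 1.38). In sonKD it stood at 497 against 128 CPM (1.96, 1.78 to 2.14). The high-mt barcodes held 409 CPM of Mdm2 in control, above the members, and 465 CPM in sonKD, below them. The pro-apoptotic Bax, also on the list, had log2 ratios of -0.48 (-0.63 to -0.33) and -0.56 (-0.78 to -0.36). The list was thus not higher throughout, and from 45.5% to 67.7% of the member UMIs of Mdm2, Trp53inp1, Perp, Btg2 and Polk came from 1 small cluster of barcodes in each library, described with the clusters. Pvt1, a noncoding RNA, had 30.3% and 26.4% of its UMIs there.

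The lowest ratios were those of linker histones, which package newly made DNA in S phase: Hist1h1a at -1.65 in control (-2.21 to -1.14) and -1.36 in sonKD (-1.92 to -0.85), and Hist1h1b (chromosome 13, 21779883 to 21780625) at -1.47 (-1.64 to -1.31) and -1.25 (-1.43 to -1.07). Hist1h1b stood at 302 CPM in control members, 838 CPM in deep barcodes and 509 CPM in droplets, and at 450, 1071 and 755 CPM in sonKD. Of 67 replication-dependent histone genes, 5 reached the level and 4 were lower in both. Members of this family share sequence, so reads may be split between them. The others of the 12 lowest were Slc25a39, Hist1h1e, Krr1, Marcksl1, Hdgf, Srm, Kif11, Ube2c, Ptges3 and Raly, with log2 ratios from -0.88 to -1.16 in control and from -0.91 to -1.5 in sonKD. Kif11 and Ube2c serve mitosis, as a spindle motor and as a ubiquitin-conjugating enzyme, and Srm makes spermidine. Of 40 genes of G2 and mitosis, 5 were lower in both (Nusap1, Ube2c, Tpx2, Kif11 and Plk1) and none higher, against 2.95% and 9.08% of all genes. The list medians were -0.24 and -0.32.

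Glycolysis showed 4 of 15 genes lower (Pfkp, Aldoa, Gapdh and Ldha), none higher, and medians of -0.50 in control and -0.53 in sonKD. Over all genes, 2.95% were lower in both libraries and 9.08% higher. The aldolase Aldoa stood at 749 against 1185 CPM in control and 681 against 1221 CPM in sonKD. Among 19 genes of actin, tubulin and the cytoskeleton, 5 were lower (Actg1, Tuba1b, Tmsb10, Cfl1 and Pfn1), with medians of -0.35 and -0.43. Actb, a cytoplasmic actin, stood at -0.50 (-0.59 to -0.41) and -0.71 (-0.83 to -0.59). Of 8 genes of the integrated stress response, 3 were lower (Asns, Psat1 and Mthfd2). Translation factors had 2 of 29 lower (Eef2 and Eif3f), at medians of -0.28 and -0.33. Among 79 cytosolic ribosomal protein genes only Rpl17 was lower past 1.5-fold in both, while the list medians were -0.26 and -0.40 and the family took 17.2% of UMIs in control members against 20.9% in deep barcodes, and 18.2% against 24.3% in sonKD. With members and deep barcodes both of at most 5% mt, this turned around in control, with 2.43 percentage points more in members than in deep barcodes. In sonKD the difference was then -1.32 points.

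Several lists differed little or in both directions, where 9.08% of all genes were higher in both libraries and 2.95% lower. Nuclear-encoded genes of oxidative phosphorylation had 2 of 73 higher (Cox4i1 and Cox6a1) and 2 lower (Sdhc and Uqcrq), while the 12 mt- genes kept, which the rule bears on, had medians of 0.74 and 0.36. No member of the proteasome list (31 kept) or of the apoptosis list (7 kept) was past 1.5-fold in both libraries. Cytosolic chaperones had 1 of 21 lower (Cct6a), histone variants 1 of 6 lower (H2afx), the S phase list 2 of 38 lower (Mcm3 and Rrm1), immediate early genes 1 of 5 higher and 2 lower (Btg2, then Jund and Klf4). The nucleolar list had 1 of 24 higher and 1 lower (Gnl3 and Nop16), and the chromatin list 1 of 32 higher and 1 lower (Med13l and Kdm5b).

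Pou5f1, Sox2 and Nanog, the core factors of pluripotency, stood at 958, 234 and 114 CPM in control members and at 721, 281 and 129 CPM in sonKD members, against 1104, 352 and 170 CPM and 916, 336 and 153 CPM in deep barcodes. Droplets held 1321, 168 and 119 CPM in control and 1078, 152 and 105.4 CPM in sonKD, so Pou5f1 was higher there than in members and Nanog about level, and free RNA as a source of these UMIs was not tested. Of 27 core and naive genes kept, Spp1 was higher and Klf4 and Trim28 were lower in both libraries. None of the 3 formative or primed genes kept was past 1.5-fold in both. Markers of other cell types were scarce: no gene of the trophectoderm, mesoderm, blood and 2C-like lists reached the level, and these lists together with the endoderm, neuroectoderm and fibroblast lists took at most 0.0655% of member UMIs each. The 14 genes found of the 2C-like list had 0 UMIs in the members. With a limit of 3 counts, this allows a share of up to 0.000307% in control and 0.000524% in sonKD. The primitive endoderm list took 0.0288% of UMIs in control members and 0.0285% in sonKD members, against 0.0203% and 0.0173% in deep barcodes, and Lamc1, a laminin chain, was its only gene kept (0.75 and 0.83). None of 2 neuroectoderm and 2 fibroblast genes kept was past 1.5-fold in both, and 7 of 17 fibroblast or feeder genes had a UMI in control members and 9 in sonKD members.

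Against droplets the members differed far more, with higher ratios for genes of longer span, as given below. Of the 3458 genes, 50.1% were past 1.5-fold higher in both libraries and 11.7% lower, at medians of 0.64 in control and 0.79 in sonKD. Higher were 32 of 32 chromatin and transcription genes and 12 of 12 mt- genes. Of the speckle proteins 22 of 36 were higher, not far from the 50.1% of all genes. These lists name genes by their proteins, and where the transcripts reside was not measured. Lower were 73 of 79 ribosomal protein genes (medians -0.97 and -1.06) and 44 of 73 oxidative phosphorylation genes. Highest were Gm37240, 5330438D12Rik, Ntn1, Ptprg, Znrf3 and Kcnq1ot1, from 3.95 to 4.51 in control and from 4.37 to 5.22 in sonKD. Ptprg, a receptor phosphatase, stood at 216 CPM in control members, 145 CPM in deep barcodes and 13.1 CPM in droplets. Among the lowest were Rps12, Tmsb10, Rpl27, Uqcrq and Mydgf, from -1.26 to -1.42 and from -1.28 to -1.48. Centred on the median gene, 1223 genes were higher and 1123 lower, or 52.1% higher against 81.0% before centring, and without mt and ribosomal protein genes in the total 69.2% of the calls were higher. For deep barcodes the higher share moved from 75.5% to 64.5% on centring.

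The members were no simple blend of both references. Only 26.2% of genes in control and 22.6% in sonKD had a CPM between those of deep barcodes and droplets, while 47.1% and 51.1% lay above both. Fitted as a mixture of the deep and the droplet profile without mt genes, the summed members had 100% of their weight on the deep profile in each library. With the high-mt barcodes as a further reference, 66.5% of the weight in control and 78.4% in sonKD went to the high-mt profile, 25.9% and 21.3% to the deep profile and 7.55% and 0.329% to droplets. In these sums deeper barcodes count for more. Fitted one by one, 170 control members (24.7%) and 94 sonKD members (23.6%) had their highest weight on droplets. The high-mt profile was highest for 461 and 277 members, and the deep profile for 57 and 28. Counted without mt genes, few genes differed between members and high-mt barcodes in both libraries: 1 of 3446 genes (0.029%) was past 1.5-fold higher in both libraries and 7 (0.203%) were lower. The former was Gtf3a, and the latter were Bag4, Fam160a2, Map3k20, Rab23, Rb1, Rbm4b and Scpep1os, with log2 ratios from -0.59 to -0.87. Rb1 stood at 80.9 CPM of all UMIs in control members and 109 CPM in high-mt barcodes.

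The ratios varied with gene span. Across 3445 genes, which are not independent replicates and share the library's depth, Spearman's rho between span and the log2 ratio over deep barcodes was 0.42 in control and 0.48 in sonKD, and over droplets 0.76 and 0.75. Over high-mt barcodes it was -0.42 in control, where medians went from 0.12 for genes in the lowest decile of span to -0.22 in the highest, and -0.035 in sonKD. The tenth of genes with the longest span had a median ratio over deep barcodes of 0.27 and 0.48, and the tenth with the shortest span -0.20 and -0.26. Protein-coding genes of at least 100 kb took 8.75% of UMIs in control members, 7.29% in deep barcodes and 2.22% in droplets, and 9.17%, 6.58% and 1.82% in sonKD. Whether intronic reads were counted is not given in the sources used here. With each barcode thinned to 700 UMIs, members had a median of 517 genes in control (514 to 521) and 525 in sonKD (521 to 529), above the deep barcodes at 502 and 487 and the high-mt barcodes at 475 and 451. The thinned counts included mt- genes, which took a median of 18.1% and 22.3% of UMIs in high-mt barcodes. The rule itself thus bears on the comparison with high-mt barcodes.

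The difference from deep barcodes varied with the depth of the reference. Against the 514 control and 172 sonKD deep barcodes of 2500 to under 5000 UMIs, only 94 genes were past 1.5-fold in both libraries, against 416 for all deep barcodes and 445 for those of at least 5000 UMIs. Malat1 stood at 8276 CPM in control members of 2000 to under 2500 UMIs, 3648 CPM in low-mt barcodes of 2500 to under 5000 UMIs and 2410 CPM at 5000 to under 10000. In sonKD these values were 7910, 6721 and 2079 CPM. Over the same ranges Mdm2 stood at 413, 486 and 133 CPM in control, where the barcodes of 2500 to under 5000 UMIs held as much of it as the deepest members, and at 714, 463 and 226 CPM in sonKD, where they held less. Rb1 in control, and Hist1h1b and Ube2c in sonKD, had a ratio of the other sign against the range of 2500 to under 5000 UMIs (-0.057, 0.12 and 0.13).

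The members varied among themselves by more than counting gives, as the deep barcodes did. The standard deviation of the ribosomal protein share over members was 7.72 times its counting value in control and 8.23 times in sonKD, and over deep barcodes 7.19 and 9.05 times. That of Malat1 was 4.01 and 5.28 times over members and 4.64 and 6.36 times over deep barcodes. Counting values fall with depth, so these multiples do not compare the spread of the classes. The standard deviations themselves were 8.33 and 9.12 percentage points of ribosomal protein share in members, against 3.45 and 3.92 in deep barcodes. For Malat1 they were 1.02 and 1.43 points, against 0.28 and 0.30. Limits at 3% mt and 20% ribosomal protein UMIs, chosen after the values were seen, split the members into 4 ranges, which are ranges and not cell types. Within 0.5 percentage points of the mt limit lay 18 control and 15 sonKD members, and within 2 points of the other limit 51 and 27.

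**Figure D3:**
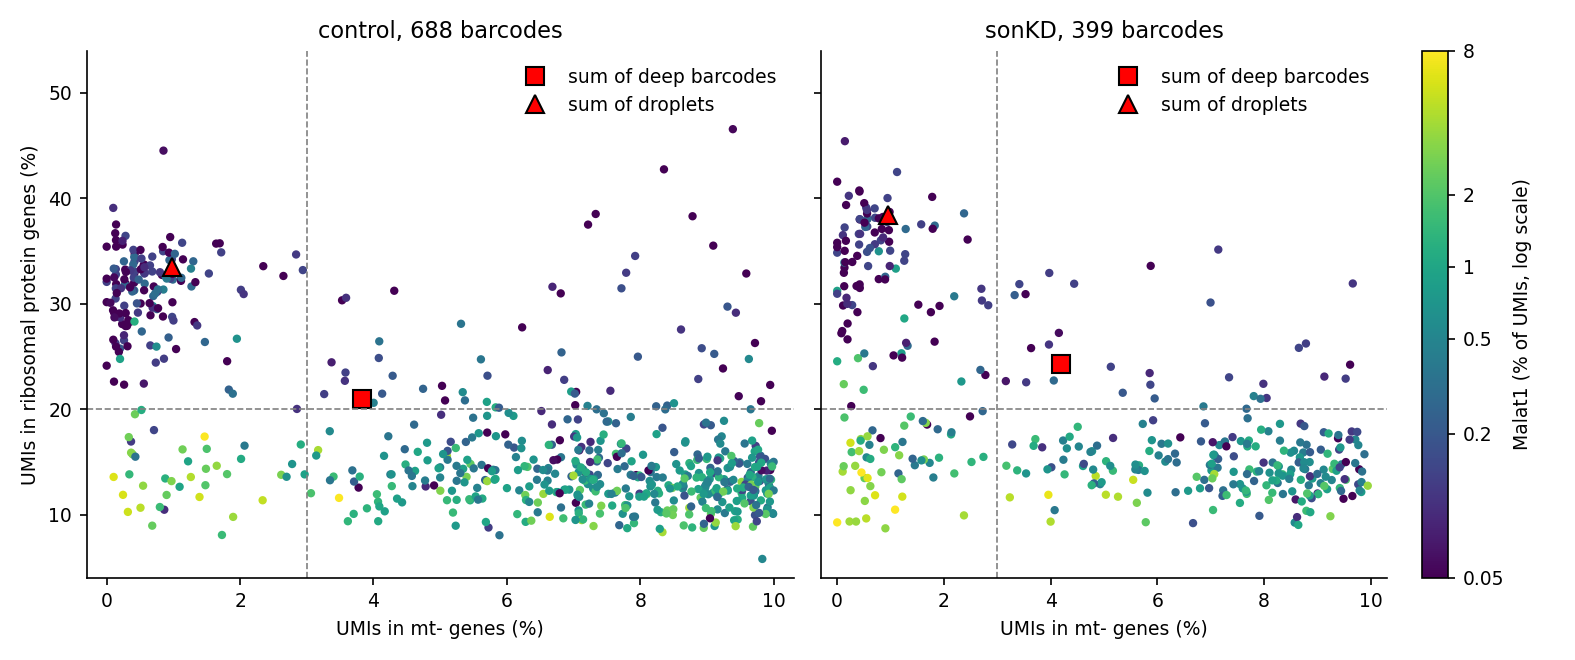
Percent of UMIs in mt- genes (x axis) and ribosomal protein genes (y axis) for each of the 688 control and 399 sonKD members, coloured by percent of UMIs in Malat1 on a log scale; dashed lines mark 3% and 20%, and red symbols the summed deep barcodes (square) and droplets (triangle). A dense group lies around the droplet value at upper left, and 155 control and 106 sonKD members have under 3% mt with at least 20% ribosomal protein UMIs. The median Malat1 share was highest at lower left, at 2.39% and 2.09%. Single barcodes rich in Malat1 also lie at lower right, up to 7.82% in control and 6.77% in sonKD.

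The range under 3% mt with at least 20% ribosomal protein UMIs held 155 control members (22.5%, 19.5 to 25.8) and 106 sonKD members (26.6%, 22.3 to 31.2). Malat1 took 0.135% of its UMIs in control and 0.182% in sonKD, against 0.126% and 0.102% in droplets and 0.263% and 0.219% in deep barcodes. Genes of at least 100 kb took 2.69% and 2.89%, against 2.22% and 1.82% in droplets. Control thus lay close to the droplets in both measures, while sonKD lay above them. Thinned to 700 UMIs its barcodes had medians of 432 and 419.5 genes. The spectrin-repeat gene Macf1, the histone acetyltransferase Kat6b and the cytolinker Dst were among the genes lowest against deep barcodes, with Kat6b at -1.97 and -2.0. This range made up 60.5% of control and 61.7% of sonKD members of 700 to under 1000 UMIs, and 3.05% and 2.27% at 2000 to under 2500 UMIs. Without it, 847 genes were past 1.5-fold against deep barcodes in both libraries, where all members gave 416, and the ribosomal protein share lay 6.11 points below deep barcodes in control and 9.15 points below in sonKD.

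The range under 3% mt and under 20% ribosomal protein UMIs was the opposite in Malat1. It held 41 control members (5.96%, 4.31 to 8.0) and 57 sonKD members (14.3%, 11 to 18.1), with intervals over barcodes, which are not replicates of a condition. Malat1 took 2.54% and 2.53% of its UMIs and genes of at least 100 kb 14.1% and 13.8%, the highest of the 4 ranges in both libraries. Its barcodes had a median of 565 genes at 700 UMIs in each library. Highest against deep barcodes after AY036118 and Malat1 were Gm26917 (2.47 and 3.27), Gm42418, Alkbh1, a DNA and RNA demethylase (2.29 and 2.36), Wac, Ttc14 and Ext1. Slc25a5, which carries ADP and ATP across the inner mitochondrial membrane, was lowest in control (-2.21, and -1.63 in sonKD).

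The largest range, from 3 to 10% mt and under 20% ribosomal protein UMIs, held 431 control members (62.6%) and 204 sonKD members (51.1%). Of these, 402 and 201 had their highest weight on the profile of high-mt barcodes. Malat1 took 0.928% and 0.864% of UMIs. Apoe (1.43 and 1.62), Alkbh1 (1.55 and 2.09) and Tra2a (1.15 and 1.66) were among its highest genes against deep barcodes, and Hist1h1b (-1.97 and -1.47) and Marcksl1 (-1.40 and -1.29) among its lowest. The remaining range, from 3 to 10% mt and at least 20% ribosomal protein UMIs, held 61 and 32 members. Mdm2 stood at 866 CPM there in control and 383 CPM in sonKD, from 90 and 15 UMIs.

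Clustering of each library's members on genes without mt- genes gave 3 clusters in control and 3 in sonKD, which are described by their leading genes with no test. None carried 3 of the fixed cell type markers among its leading genes, so none is named. Control cluster 1 (432 barcodes) and sonKD cluster 3 (241 barcodes) corresponded, since all 10 leading genes of each were at least 2-fold above the other members in the counterpart. Their leading genes included Meg3 and Wwox in both, Malat1, Enox1 and Smyd3 in control and St6galnac3 and Neat1 in sonKD, and Malat1 stood at 10729 and 12034 CPM in them. They held 93.1% and 93.7% of the Malat1 UMIs of members, and 85.4% and 95.8% of those of Neat1. Control cluster 3 (192 barcodes) and sonKD cluster 1 (125 barcodes) held 154 and 102 barcodes of the range under 3% mt with at least 20% ribosomal protein UMIs, and corresponded less closely, with 6 and 5 of 10 leading genes at least 2-fold higher in the counterpart. Rps12 was a leading gene of both, Uqcr10 of the control cluster, and Rpl27 and Magoh of the sonKD cluster.

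Control cluster 2 (64 barcodes, 9.30% of members) and sonKD cluster 2 (33 barcodes, 8.27%) also corresponded with 10 of 10 leading genes both ways. Several p53 targets were highest in them, though not all. Bax stood at 329 and 302 CPM, below the 555 and 490 CPM of deep barcodes. Rps27l, also counted among the ribosomal protein genes, stood at 493 and 604 CPM, against 696 and 934 CPM in deep barcodes. Aen in sonKD stood at 113 CPM, against 126 CPM in cluster 1, from 6 and 15 UMIs. In control Mdm2 stood at 2090 CPM in cluster 2, 114 CPM in cluster 1 and 132 CPM in cluster 3, and in sonKD at 3360 CPM against 240 and 92.3 CPM in the other clusters. Trp53inp1, which promotes p53 activity, stood at 445 and 849 CPM, and Ccng1, a cyclin, at 493 and 925 CPM. The cell cycle inhibitor Cdkn1a stood at 174 and 170 CPM, from 18 and 9 UMIs. Apaf1, the scaffold of the apoptosome, stood at 310 and 698 CPM, against 25.5 and 22.3 CPM in deep barcodes. The p53 target list took 0.859% of cluster UMIs in control (0.804 to 0.917) and 1.31% in sonKD (1.22 to 1.41), against 0.244% and 0.261% in deep barcodes. Mdm2 alone gave 216 of the 888 list UMIs in control and 178 of 694 in sonKD. The clusters were made from these same counts, so the list share only describes them. Cluster 2 held 216 of the 319 Mdm2 UMIs of control members (67.7%) and 178 of 285 in sonKD (62.5%). Malat1 took 0.211% and 0.221% of UMIs in cluster 2, between the values of the other clusters and near or below the deep barcodes at 0.263% and 0.219%. The same cluster was low in Nanog (29.0 and 18.9 CPM, against 170 and 153 CPM in deep barcodes) and the G2 and mitosis list (0.425% and 0.281%, against 0.720% and 0.655% in deep barcodes). Its leading genes in sonKD included Fosl1, an AP-1 factor, the ATP-gated channel P2rx7 and the inflammation-linked Tnfaip6, and in control Rb1, Rab23 and Pard6g. Its median mt share was 7.76% and 6.67%, which lies in the upper part of the allowed range, and the part of mt share in these levels was not tested.

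**Figure D4:**
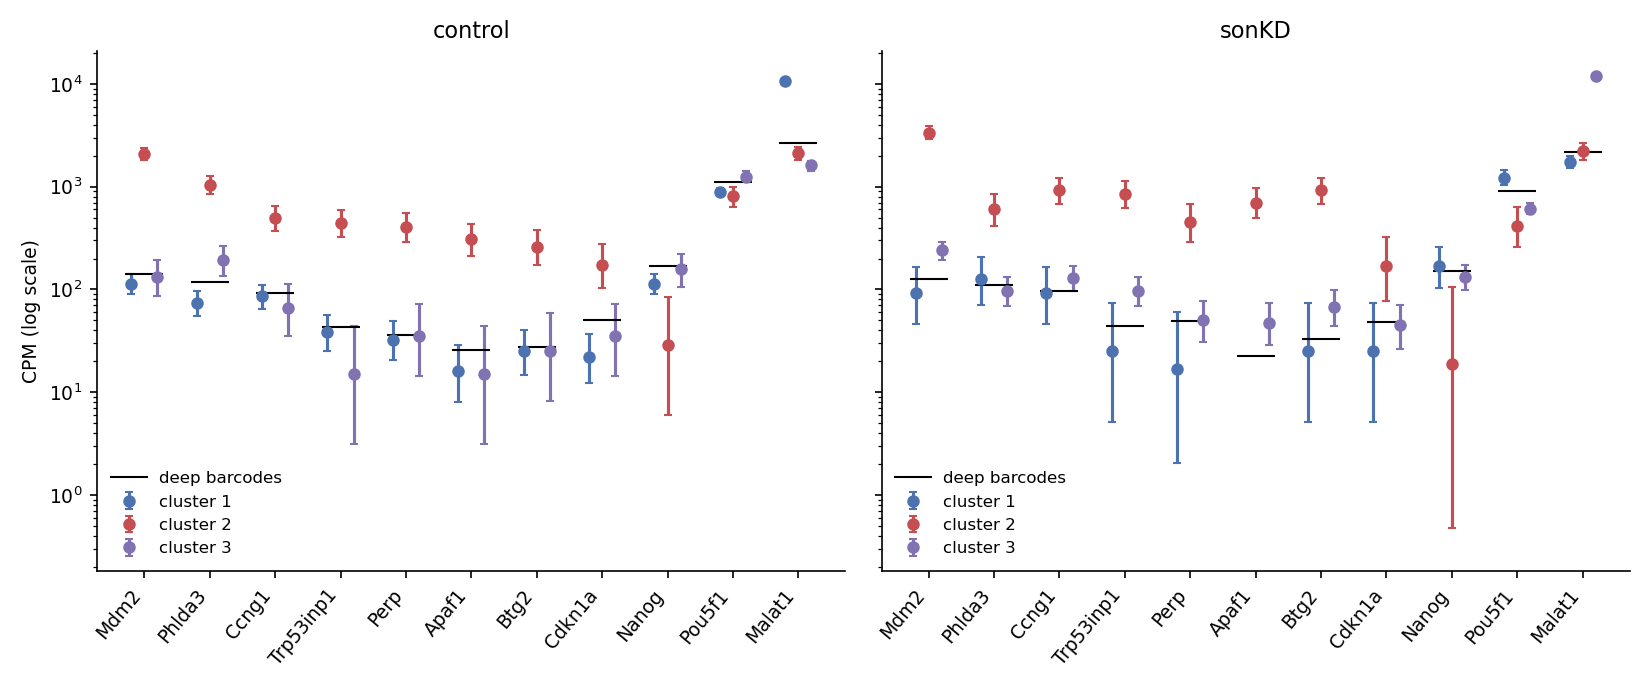
CPM on a log scale of 8 p53 targets or apoptosis genes, Nanog, Pou5f1 and Malat1 in the 3 clusters of control members (left) and of sonKD members (right), with 95% exact Poisson intervals; black dashes mark the deep barcodes, and a gene with 0 UMIs in a cluster has no point. Cluster 2 of each library (red) lies above the deep barcodes for Mdm2 at 2090 and 3360 CPM. It lies below them for Nanog at 29.0 and 18.9 CPM, from 3 and 1 UMIs. Bax and Rps27l, lower in cluster 2 than in deep barcodes, are not shown.

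Between the libraries, the siRNA target was lower in sonKD members. Son (chromosome 16, 91647506 to 91679221) stood at 299.9 CPM in control members and 169 CPM in sonKD members, a log2 ratio of -0.82 (-1.17 to -0.49), and at 169 and 106 CPM in deep barcodes (-0.67). Its level was higher in members than in deep barcodes of the same library, at 0.83 (0.66 to 1.00) in control and 0.68 (0.37 to 0.97) in sonKD. Control cluster 1 and sonKD cluster 3 held 82.3% and 89.7% of these member UMIs, at 357 and 217 CPM. The other clusters stood at 174 and 172 CPM in control, near the deep barcodes. In sonKD they stood at 75.5 and 50.3 CPM, below the deep barcodes, from 4 and 6 UMIs. Among barcodes of at most 5% mt the ratio of sonKD over control was -0.27. Over all 3458 genes, 5.06% were past 1.5-fold higher in sonKD members and 4.68% lower, or 175 and 162 genes, while in deep barcodes the same genes gave 47 and 29. Members rested on 976923 and 572906 UMIs and deep barcodes on 40902904 and 32032551, and the part of counting error in the larger counts was not tested.

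Among the highest ratios were those of Hist1h2ap at 2.47 (1.64 to 3.38), Neat1 at 1.84 (1.56 to 2.12), Hist1h2ae at 1.79, Gle1 at 1.5 (1.05 to 1.97), Btg2 at 1.46 (0.93 to 2.00), Rpl35 at 1.30 and Mrpl27 at 1.23. For Hist1h2ap, Hist1h2ae and Rpl35 the deep barcodes gave 2.39, 1.41 and 1.35, and reads of these families can be split between near-identical copies. Neat1, the scaffold RNA of paraspeckles, stood at 162 CPM in control members and 578 CPM in sonKD members, and at 87.2 and 224 CPM in deep barcodes (1.36). Gle1, a messenger RNA export factor, and Btg2, an antiproliferative p53 target, had smaller ratios in the deep barcodes, 0.31 and 0.27. Both were named here for their high ratios in members. The high-mt barcodes also held more of each in the sonKD library: 132 against 79.4 CPM of Gle1, and 140 against 78.4 CPM of Btg2. Cluster 2 held 62.0% of the Btg2 UMIs of sonKD members and 55.1% in control, but only 8.33% and 12.3% of those of Gle1. Gle1 stood at 66.5 CPM in control members and 189 CPM in sonKD members, and Btg2 at 50.2 and 138 CPM. A test of these differences between classes was not possible with 1 library each.

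The lowest ratios were those of Idh2, a mitochondrial isocitrate dehydrogenase, at -1.77 (-2.58 to -1.04), Bud23 at -1.62, Cited2 at -1.41, Rnaseh2c at -1.39, Isyna1 at -1.37, Tjp1 at -1.18, Car2 at -1.15 and Racgap1 at -1.14. In deep barcodes Idh2, Bud23, Rnaseh2c, Isyna1 and Cited2 had ratios from -0.94 to -0.62, and Tjp1, Car2 and Racgap1 from -0.32 to -0.0021. These genes rested on 12 to 38 UMIs in sonKD members. By list, p53 targets had 6 of 13 genes higher in sonKD members (Mdm2, Ccng1, Trp53inp1, Btg2, Polk and Aen) and none lower, at a median of 0.39, against 0.04 in deep barcodes. Over all genes, 5.06% were higher in sonKD members and 4.68% lower. Ribosomal protein genes had 9 of 79 higher and 1 lower (Rpl21), at a median of 0.19, against 0.36 in deep barcodes. Malat1 had a ratio of 0.17 (0.12 to 0.22) in members and -0.27 in deep barcodes. The range rich in Malat1 made up 14.3% of sonKD members and 5.96% of control members, and its part in that ratio was not tested. Pou5f1 stood at -0.41 (-0.58 to -0.24), Sox2 at 0.26 (-0.04 to 0.56), Nanog at 0.18 (-0.26 to 0.62) and Srrm2, a speckle scaffold, at 0.09 (-0.08 to 0.25).

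**Figure D5:**
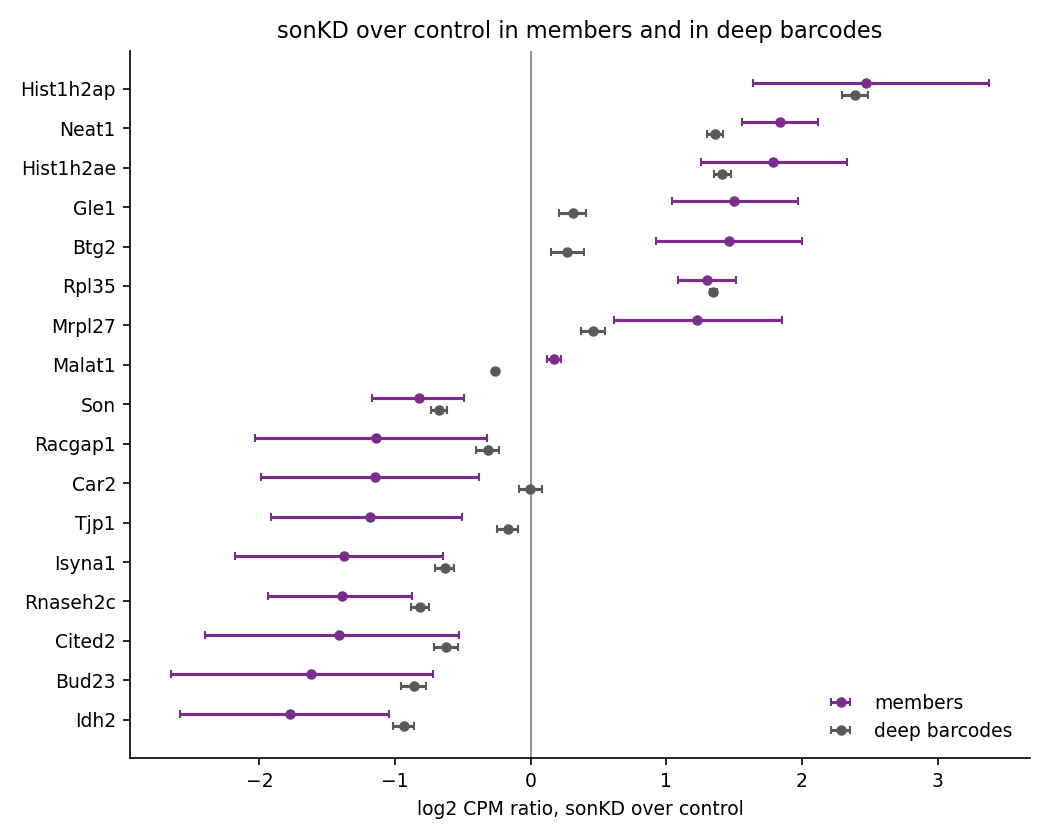
Log2 ratio of CPM in sonKD over control for 7 of the highest and the 8 lowest genes in members whose interval leaves out 0, with Son and Malat1; purple points are members, grey points deep barcodes, and bars 95% conditional binomial intervals. Son lies at -0.82 in members and -0.67 in deep barcodes, while Gle1 and Btg2 lie at 1.5 and 1.46 in members and at 0.31 and 0.27 in deep barcodes.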

How the data were processed

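The deposited raw matrices hold whole-number UMI counts per gene and barcode, with mm10 and Cell Ranger 7.1.0 named in the submitters' processing notes. The annotation release and the intron and strand settings are not given in the sources used here. Members and gene lists were chosen with earlier results of these data known. Counts were summed over the barcodes of each class and divided by their total UMIs, as CPM. The text names the 12 highest and 12 lowest genes over deep barcodes by the smaller ratio of the libraries, the 6 and 6 over droplets, the 8 and 8 between libraries whose interval leaves out 0, genes of the fixed lists, and Son, Malat1, Neat1, Pou5f1, Sox2, Nanog, Srrm2, Cdkn1a and Actb. Some genes that meet this rule are not reported here. Genes named for ranges, clusters and the high-mt comparison, and the ranges and that comparison themselves, were chosen after the values were seen. With 1 library per group, a gene counts as different past 1.5-fold. Intervals are 95% exact Poisson for CPM, exact binomial for shares and conditional binomial for ratios. Clusters used Leiden at resolution 0.5 on 1000 variable genes without mt- genes, 20 components and 15 neighbours. No doublet caller was run and no barcode was removed as a doublet. Positions, spans and biotypes come from GENCODE M21 on GRCm38, matched by gene identifier for 32158 of 32285 genes. Python 3.11.15, numpy 2.4.6, scipy 1.17.1, pandas 2.3.3 and scanpy 1.11.5 were used, and scripts were tested on simulated data. The libraries held 71046373 (control) and 60352438 (sonKD) UMIs.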

Additional observations from a re-analysis of the deposited data

Results flagged for a closer look

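Cytosolic Hsp90 genes lay on opposite sides of 0 in the libraries when members were set against deep barcodes. Hsp90ab1 had a log2 ratio of 0.037 in control and -0.21 in sonKD, and Hsp90aa1 of 0.082 and -0.14. They are given because the direction differed between control and sonKD, and that difference was not tested. All 4 values are within 1.5-fold.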

How the results depend on the processing

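The 416 genes past 1.5-fold against deep barcodes in both libraries became 658 with members of 1000 to under 2500 UMIs, 184 with at most 5% mt, 933 and 73 with a mean of at least 20 and 200 CPM, 9727 with no filter, 53 past 2-fold, 274 with means of CPM per barcode, 94 against deep barcodes of 2500 to under 5000 UMIs and 847 without the droplet-like range, an alternative chosen after seeing the data. The 2139 genes against droplets became 4179 and 438 at those levels and 13378 with no filter. The 337 genes between the libraries became 823 with at most 5% mt, 1087 and 45 at those levels, 7775 with no filter, 41 past 2-fold and 547 with members thinned to 700 UMIs. A limit of 5% mt left 251 control and 205 sonKD members, and 15% took 1885 and 707. Where deep barcodes were the reference, the 5% limit was applied to them as well. The ribosomal protein share minus that of deep barcodes, -3.78 in control and -6.07 in sonKD, became -5.34 and -8.21 from 1000 UMIs, -6.11 and -9.15 without the droplet-like range, and 2.43, the reversed direction, and -1.32 with at most 5% mt. The excess of genes at equal depth went from 15 and 38 to 36 and 73 at 1000 UMIs. The deep weight became 98.2% in control without ribosomal protein genes and 25.9% and 21.3% with 3 profiles. Resolution 0.8 gave 5 clusters in each library. Against deep barcodes of 2500 to under 5000 UMIs, Rb1 in control reversed to -0.057, and Hist1h1b and Ube2c in sonKD to 0.12 and 0.13. Of 1190 values of named genes under alternatives, 993 moved less than their counting interval, 194 moved more and 3 reversed. A change of sign counted as reversed only where the main ratio was at least 1.5-fold. Other changes of sign were counted by whether they left the interval. Filters and folds change the genes counted by construction, and the cause of the other changes was not tested. No paired analysis was possible because each group is 1 library.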
